A study of Homo sapiens with 3 samples.

Results

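The mRNAs of small ribosomal subunit proteins were examined in the RNA that came down with DDX49, a DEAD-box RNA helicase carrying a Flag tag. Members were the genes whose symbols have the form RPS followed by a number, with an optional A, X or L, together with RPSA and FAU. S6 kinases and read-through names were left out. This gave 34 of the 13247 genes in the deposited table.

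All samples belonged to 1 group of 3 replicate libraries from HHL5 cells, a human line labelled as embryonic liver cells of WT genotype. The cells carried transfected Flag-DDX49 and were exposed for 24 h to OA/PA, at 1.5 mM and a ratio of 2 to 1. The promoter of the construct is not stated. RNA immunoprecipitation sequencing (RIP-seq) counts the RNA that an antibody brings down with its protein, here after ultraviolet cross-linking. Untreated cells, an input and a mock pull-down were not analysed here, so a level joins a transcript's amount in the cell with its recovery, and no conditions were compared.

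The libraries held 2023133, 1461858 and 1096586 counts, and 1 count equalled 0.494, 0.684 and 0.912 CPM (counts scaled to a library total of 1000000) in replicates 1, 2 and 3. DDX49 itself took 3.53%, 4.15% and 5.09% of the counts. Of 10 hepatocyte markers 3 were in the table: CPS1 had 1726 ± 45.9 CPM (SD, n = 3), while CEBPA (1.72 ± 0.317) and APOA2 (0.912 ± 1.58) were near 0.

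The small subunit of the cytosolic ribosome binds the mRNA, scans it for a start codon and decodes it, while the large subunit joins amino acids. Each of its proteins is needed in about equal number, and cells are known to make them together through a short stretch of pyrimidines at the very start of their mRNAs, the 5′ terminal oligopyrimidine tract, which lets growth signals switch their translation on and off. Roles of DDX49 are known in the processing of ribosomal RNA and in the export of mRNA.

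The start of the gene is shown for members that the results turn on: the most abundant ones, RPS19 and RPS21 (which differed most between libraries), RPS23 (which differed least), the paralogs RPS27 and RPS27L, and members of low level. Each line gives 10 bases before and 20 bases from the annotated start (RefSeq, GRCh38.p14), 5′ to 3′ on the gene's strand, with the longest run of C and T in capitals.
RPS6 (chr9:19380217-19380246, minus strand): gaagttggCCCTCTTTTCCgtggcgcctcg
RPSA (chr3:39406710-39406739, plus strand): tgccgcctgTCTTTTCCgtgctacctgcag
RPS3 (chr11:75399508-75399537, plus strand): cgagccaCTTCCTTTCCTTTCagcggagcg
RPS4X (chrX:72277229-72277258, minus strand): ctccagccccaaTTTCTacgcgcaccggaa
RPS19 (chr19:41860245-41860274, plus strand): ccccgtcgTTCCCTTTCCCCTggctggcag
RPS21 (chr20:62387093-62387122, plus strand): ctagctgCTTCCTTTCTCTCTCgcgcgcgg
RPS23 (chr5:82278335-82278364, minus strand): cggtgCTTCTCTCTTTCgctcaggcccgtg
RPS27 (chr1:153990752-153990781, plus strand): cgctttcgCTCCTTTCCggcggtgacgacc
RPS27L (chr15:63157458-63157487, minus strand): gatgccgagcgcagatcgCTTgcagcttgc
RPS10 (chr6:34426050-34426079, minus strand): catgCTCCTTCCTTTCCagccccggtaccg
RPS9 (chr19:54200848-54200877, plus strand): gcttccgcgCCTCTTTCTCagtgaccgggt
RPS29 (chr14:49598691-49598720, minus strand): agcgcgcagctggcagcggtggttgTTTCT

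A run of at least 8 pyrimidines in this window of 30 bases was found in 22 of the 26 members with a sequence (84.6%), against 29 of 41 large subunit genes (70.7%), 3 of 29 mitochondrial small subunit genes (10.3%) and 3430 of all 27305 RefSeq windows of the same length (12.6%). The longest runs, of 16 bases, were those of FAU and RPS24. The 4 members without such a run were RPS3A (7 bases), RPS4X (5), RPS29 (5) and RPS27L (3). The run of RPS29 reached the end of the window, so its full length may be greater. The same search for A and G on the gene's own strand, which finds runs whose pyrimidines lie on the opposite strand, gave 0 of 26 members and 2820 of all 27305 windows (10.3%). The order of the lists depended on the length asked for: with at least 10 pyrimidines it was 16 of 26 members (61.5%) against 29 of 41 large subunit genes (70.7%) and 5.79% of all windows. A run is a stretch of letters and not a mapped start of transcription. Members without a window included RPS2, RPS15A and RPS20. Among the 26 members, mean level and length of the run had a Spearman correlation of 0.07, a description only. The low RPS10 and RPS9 carried runs of 13 and 10 bases, as long as those of abundant members, and RPS4X was among the 4 most abundant with a run of 5.

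Small subunit mRNAs were abundant in the DDX49 pull-down but spread widely. Together they took 1.68% ± 0.104 of all counts (SD, n = 3), with 1.58% (95% Wilson interval 1.56 to 1.60), 1.67% (1.65 to 1.69) and 1.79% (1.76 to 1.81) in replicates 1, 2 and 3. The intervals, which cover counting error only, did not overlap. Of the 34 entries 4 exceeded 1000 CPM, 26 exceeded 100 CPM, 5 lay between 10 and 100 CPM and 3 lay below 2 CPM. The 5 most abundant, RPS6, RPSA, RPS3, RPS4X and RPS2, held 41.2% of the summed level. CPM is not divided by transcript length, so the order of genes is one of counts and not of molecules.

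**Figure D1:**
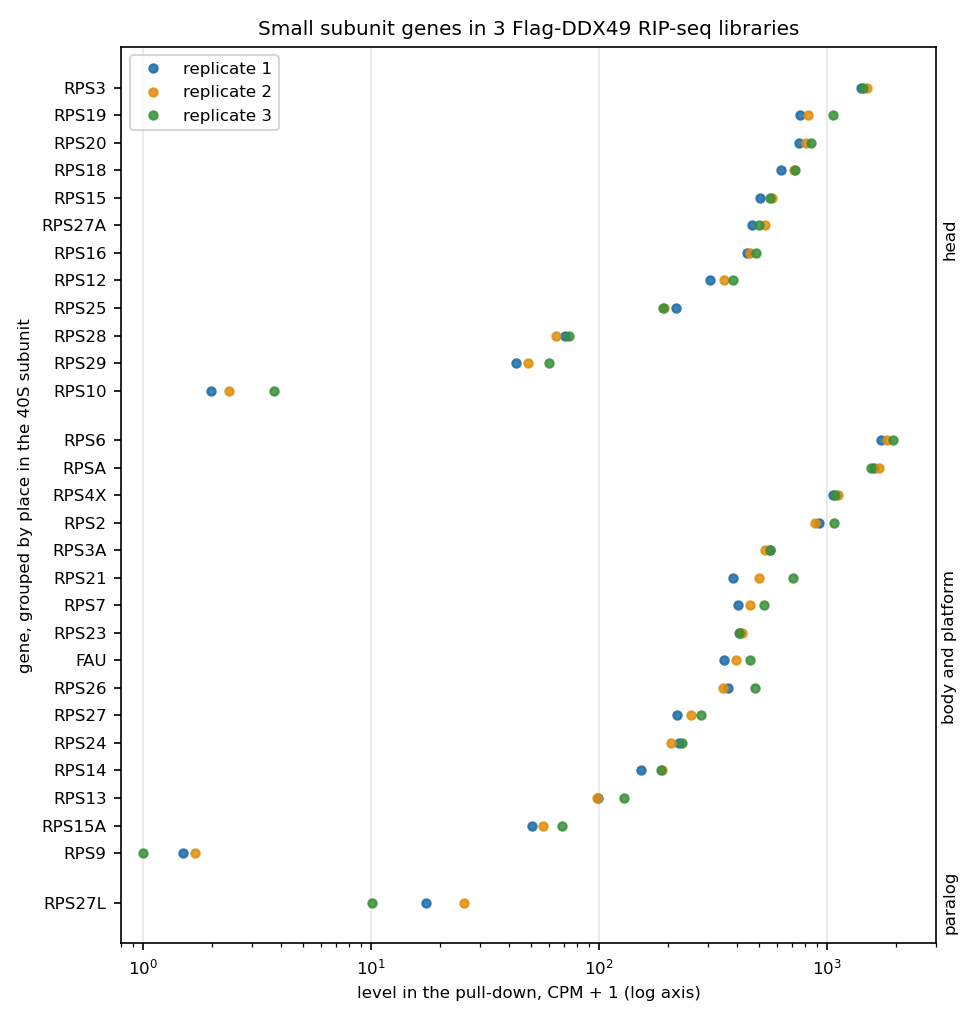
CPM + 1 on a log axis for 29 of the 34 small subunit entries, grouped by place in the 40S subunit, with 1 point per replicate library. Of the 29 shown, 23 had a mean above 100 CPM, while RPS10 and RPS9 lay below 3 CPM in each of the 3 libraries.

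The spread between members was far larger than that between libraries. The SD of log2(CPM + 1) over the 34 members was 2.76 ± 0.06 (SD over 3 libraries), against a median SD of 0.15 for 1 member over the 3 libraries. It was 2.09 ± 0.04 over the 32 entries of at least 1 CPM. The libraries ranked the members alike, with Spearman correlations of 0.991, 0.981 and 0.992 across the 34 entries, which share each library's depth and are no independent replicates. In the order of mean level, 20 of the 33 neighbouring pairs had overlapping ranges over the 3 libraries. Such ranges do not compare 2 genes within a library, so an overlap does not show that they were alike. RPS4X exceeded RPS2 in each of the 3 libraries although their ranges overlapped. The pairs that stood apart included RPS6 above RPSA, RPSA above RPS3 and RPS3 above RPS4X.

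The median small subunit mRNA stood 3.93 ± 0.19 log2 units higher than the median over 10815 genes of at least 1 CPM, with distances of 3.77, 3.89 and 4.15 in replicates 1, 2 and 3. Large subunit genes (52 in the table) lay 3.95 ± 0.14 above it. The small minus large difference of medians was -0.03, -0.09 and 0.06 log2 units, so its sign changed between libraries and its mean of -0.02 was smaller than its SD of 0.08. In summed counts the small subunit held 0.504, 0.504 and 0.521 times the large subunit's. An exact sign-flip test over 3 libraries cannot go below a p of 0.25, so no test of these distances was made.

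**Figure D2:**
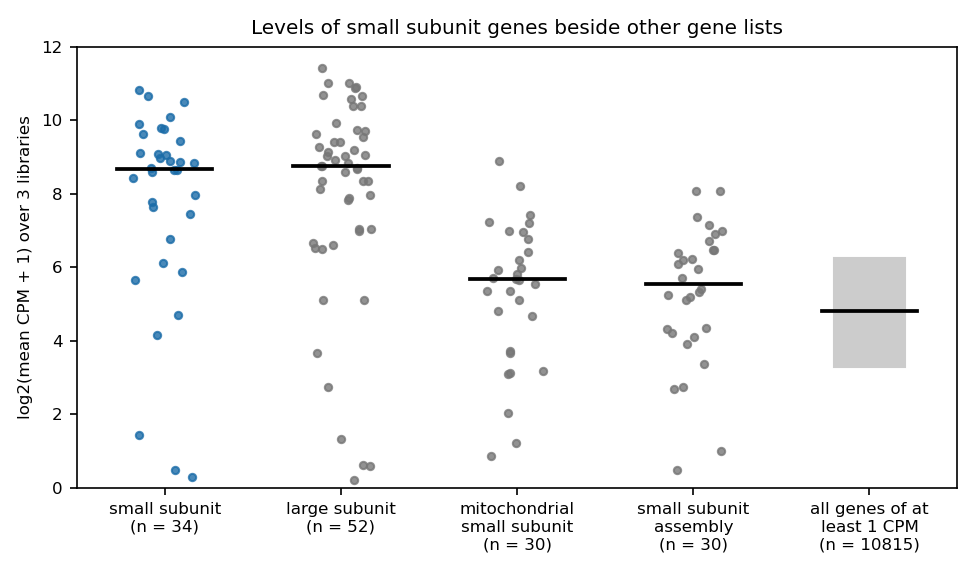
log2(mean CPM + 1) over 3 libraries for each gene of 4 lists (points) with the list's median (bar), and for all genes of at least 1 CPM the median and the range between quartiles (grey box). The small and large subunit medians lie at about the same height, above those of the mitochondrial small subunit and of assembly factors.

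The head of the subunit is the part that swivels as the ribosome moves along the mRNA. Genes of its proteins had a median of 468 CPM over 14 entries, with quartiles of 101 and 652 CPM. The 18 of the body and platform had a lower median, 409 CPM, but higher quartiles, 226 and 792 CPM. The head was led by RPS3 (1443 ± 41.1 CPM, n = 3), then RPS19 (881 ± 160), RPS20 (799 ± 49.2) and RPS18 (687 ± 50.7). RPS19 is the gene most often mutated in Diamond-Blackfan anaemia, a failure of red cell formation. RPS15, RPS27A, RPS16, RPS12 and RPS25 lay between 199 and 546 CPM. RPS28 (68.8 ± 4.74) and RPS29 (49.7 ± 8.78) were lower, and RPS10 was near 0.

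The channel through which mRNA enters the subunit is lined by the products of RPS3, RPS2 and RPS9, and these 3 genes stood at opposite ends of the list. RPS3 (ENSG00000149273, chr11:75399518-75422302) had 1408, 1489 and 1434 CPM. RPS2 (ENSG00000140988, chr16:1962058-1964826) had 918, 882 and 1068 CPM. RPS9 (ENSG00000170889, chr19:54200858-54207647) had 1, 1 and 0 counts, and a count of 0 allows up to 2.74 CPM in replicate 3 (3 counts of the total, counting error only). Thus 2 of the proteins that share the entry site had abundant mRNAs and the third had almost no reads.

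At the exit of the channel, where the mRNA leaves the subunit, sit the products of RPS14 and RPS26, among others. RPS26, another Diamond-Blackfan gene, had 364, 349 and 481 CPM. RPS14, whose loss is known in the 5q deletion of myelodysplastic syndrome, had 152, 188 and 185 CPM and was below RPS26 in each of the 3 libraries.

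The body and platform included the most abundant member, RPS6 (ENSG00000137154, chr9:19375715-19380236), which is phosphorylated by the S6 kinases in response to growth signals. RPS6 had 1719, 1819.6 and 1934 CPM and ranked 41 of the 13247 genes. RPSA, also known as the laminin receptor precursor, followed with 1600.5, 1682 and 1548 CPM. RPS4X, an X-linked gene with a Y-linked counterpart, had 1054, 1114 and 1079.7 CPM, and replicate 2 was highest for both RPSA and RPS4X.

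RPS3A (550.1 ± 16.2 CPM), RPS21 (532 ± 164), RPS7 (463 ± 58.99) and RPS23 (416 ± 5.88) were in the middle of the body and platform group. RPS23, whose product sits at the decoding centre and bears on the accuracy of translation, had 415, 422 and 410.4 CPM, the lowest coefficient of variation (1.41%) of the tested members. RPS27 (249 ± 29.5), RPS24 (219 ± 12.2), RPS13 (108 ± 17.4) and RPS15A (57.6 ± 8.98) were lower, and RPS9 was lowest.

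RPS27A and FAU encode fusions, RPS27A of ubiquitin with a ribosomal protein and FAU of a ubiquitin-like protein with another, which are cut apart after translation. RPS27A had 467, 532 and 499.7 CPM. FAU had 353, 396 and 456 CPM. The ratio of RPS27A to FAU was 1.25 ± 0.137 (n = 3), with RPS27A higher in each of the 3 libraries.

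RPS27L, a close paralog of RPS27 known as a target of p53, was far below it. RPS27 had 218, 252 and 277 CPM, and RPS27L had 16.3, 24.6 and 9.12 CPM. RPS27 was 13.4, 10.3 and 30.4 times RPS27L in replicates 1, 2 and 3, and the ranges did not overlap. The ratio rests on 33, 36 and 10 counts of RPS27L.

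RPS10 and RPS9 were among the lowest entries. RPS10, whose product is ubiquitinated when ribosomes stall, had 2, 2 and 3 counts (0.989, 1.37 and 2.74 CPM). Its span (chr6:34417454-34426069) overlapped the read-through gene RPS10-NUDT3. The span of the neighbouring NUDT3 overlapped the same read-through gene, and NUDT3 had 40.4 ± 4.40 CPM. The span of RPS9 overlapped no other protein-coding gene of RefSeq. RPS27A, RPS25 and RPS28 also overlapped a protein-coding gene and had means of 499, 199 and 68.8 CPM. The median was 134 CPM over the 4 members with such an overlap, against 438 CPM over the 30 without, and 1 of the 4 against 2 of the 30 lay below 2 CPM. Large subunit genes had medians of 366 CPM with an overlap and 524 CPM without, while 22.0% of all genes with an overlap and 22.8% of those without lay below 2 CPM. The part of overlap in the low counts was not tested. The rule by which reads shared with overlapping genes, gene copies or pseudogenes were assigned is not stated.

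Processed pseudogenes are a known source of shared reads for this family. RefSeq named 697 pseudogenes after the members, from 4 each for FAU and RPS9 to 74 for RPSA, and none for RPS27L. Mean level and number of named pseudogenes had a Spearman correlation of 0.16 across 33 members, a description only. RPSAP58, once classed as an RPSA pseudogene and named RPSA2 in RefSeq, stood in the table as a protein-coding gene with 104 ± 18.2 CPM, against 1610.0 ± 67.8 CPM for RPSA. The split of reads between such copies is uncertain.

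The 3 libraries differed by more than counting error for 13 of the 31 members whose counts summed to 30 or more (a chi-square test that set a gene's 3 counts against the depths, Benjamini-Hochberg adjusted over all genes tested), against 19.6% of the 8633 genes tested. The other 3, RPS10 and RPS9 among them, had too few counts to test. Of 47 large subunit genes tested, 27 differed (57.4%). Deeply counted genes pass this test more readily: among the 894 genes whose counts summed to 1000 or more, a limit chosen after seeing the data, 44.3% passed, and so did 13 of 23 members (56.5%), 12 of them shared with the first 13. The test compares libraries of 1 group. The labels do not say that these were separate cultures, and the p-values then measure only the spread between these libraries, which may be technical.

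RPS21 differed most. It had 387, 501 and 709 CPM in replicates 1, 2 and 3 (adjusted p = 4.6e-30, chi-square test over all genes). Its counts were 782, 732 and 778, nearly level while the library totals were not. RPS19 had 762, 818 and 1062 CPM (adjusted p = 3.8e-15), and RPS26 followed (adjusted p = 7.0e-06), with replicate 3 above both others for each of these 3 genes.

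RPS2 (adjusted p = 0.00020), RPS7 (0.00061), FAU (0.0016), RPS6 (0.0021), RPS12 (0.0100), RPS18 (0.016), RPS27 (0.030) and RPS20 (0.049) also differed. RPS7 had 407, 457 and 524 CPM, and RPS12 304, 352 and 383 CPM. RPSA (0.091), RPS3 (0.29), RPS4X (0.42), RPS3A (0.65) and RPS23 (0.94) did not pass the test, although RPSA, RPS3 and RPS4X stood higher in level than every member that did except RPS6.

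**Figure D3:**
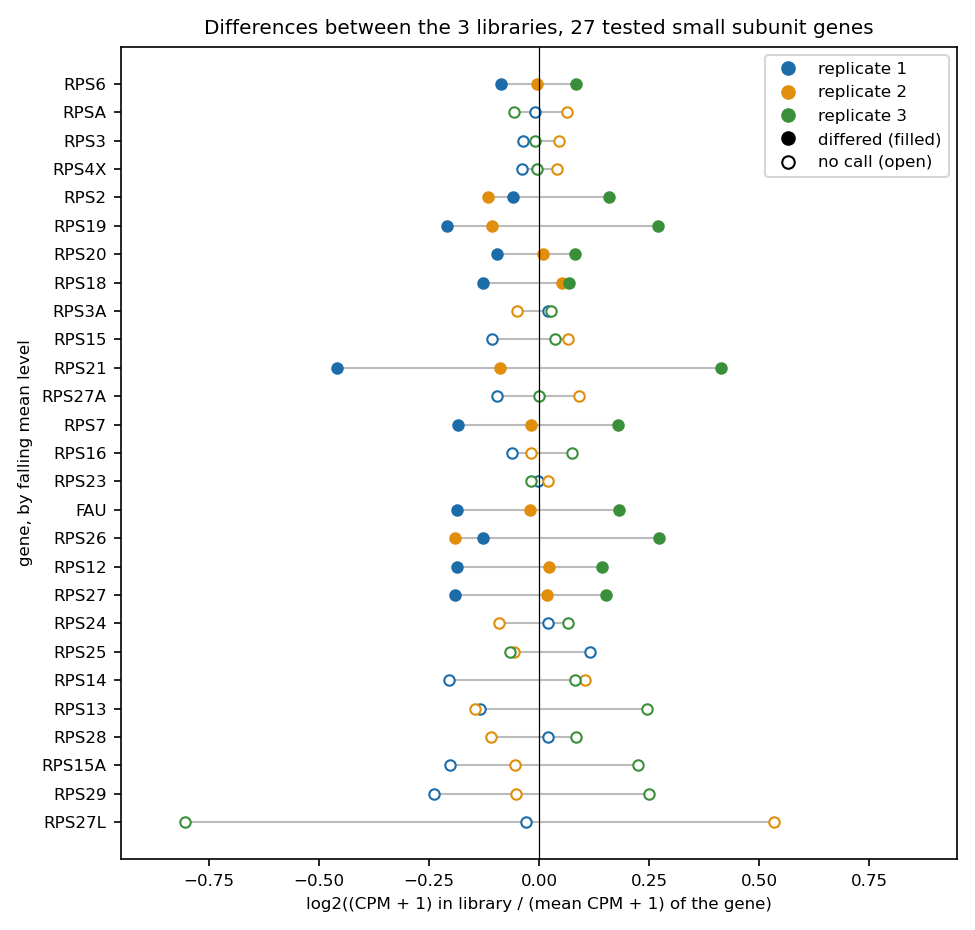
log2 ratio of each library's CPM + 1 to the gene's mean CPM + 1, for 27 of the 31 tested small subunit entries by falling level; filled points mark genes that differed between libraries (adjusted p under 0.05), open points those that did not. Replicate 3 (green) is the highest point of all 11 genes shown with filled points, with RPS21 widest among them.

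All 13 members that differed were highest in replicate 3. They were 41.9% of the members tested, while 6.66% of all genes tested both differed and were highest in replicate 3. Among genes whose counts summed to 1000 or more, these shares were 56.5% of members and 19.1% of all genes. Of the 31 tested members 22 were highest in replicate 3, 8 in replicate 2 and 1 (RPS25) in replicate 1, while 31.2% of all genes tested were highest in replicate 3. Replicate 3 exceeded replicate 1 for 27 of 31 members, with a median difference of 0.18 log2 units, against -0.08 over all genes tested. Of the 47 large subunit genes tested, 27 differed and 20 of these were highest in replicate 3. The pattern was thus not particular to the small subunit. Large subunit genes showed 30 of 47 highest in replicate 3 and a median difference of 0.17. The mitochondrial small subunit had 7 of 27 and -0.20, and assembly factors 5 of 26 and -0.06.

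Replicate 3 was also the shallowest library and the one with the largest DDX49 share, and the part of depth was not tested. With DDX49 left out of the totals, 14 members differed (45.2% of those tested, against 19.2% of all genes) and all 14 were highest in replicate 3. Under TMM factors 17 members differed (54.8%, against 18.6% of all genes), 14 of them highest in replicate 3. Under DESeq2 size factors 18 differed (58.1%, against 18.5%), 16 of them highest there. The members added by these factors thus included some highest in another library. The count, for members as for all genes tested, rests on the contrast of replicates 1 and 3. Without replicate 2, 14 members differed between the other libraries (45.2%, against 16.6% of all genes). Without replicate 1 the number was 4 (RPS21, RPS19, RPS26 and RPS2), and without replicate 3 it was 2 (RPS21 and RPS18). These were 12.9% and 6.45% of tested members, against 6.77% and 5.8% of all genes. Without replicate 3 the members thus lay near the share of all genes.

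Several of these genes carry small nucleolar RNAs (snoRNAs), guides of ribosomal RNA modification and processing that are cut from introns, so that 1 transcript can yield both a ribosomal protein mRNA and a factor of ribosome assembly. In RefSeq 9 of the 34 members held a total of 19 snoRNAs within their span, against 438 of 13072 matched genes (3.35%) overall and 19 of 52 large subunit genes. The hosts included RPSA (SNORA6 and SNORA62), RPS3 (SNORD15A and SNORD15B), RPS2 (SNORA10 and SNORA64), RPS20 (SNORD54), RPS3A (SNORD73A and SNORD73B), RPS12 (3 snoRNAs) and RPS13 (SNORD14A and SNORD14B).

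The hosts had a median of 799 CPM and ranged from 108 (RPS13) to 1610.0 CPM (RPSA), against a median of 398 CPM for the other 25 entries. The medians were 747, 804 and 845 CPM for hosts and 353, 349 and 410.4 CPM for the others in replicates 1, 2 and 3. Hosts were thus higher in each of the 3 libraries, but the ranges overlapped, since the highest member, RPS6, holds no snoRNA in its span. Among entries of at least 10 CPM the medians were 799 CPM for the 9 hosts and 409 CPM for the 22 others. Large subunit hosts had a median of 615 CPM and the other large subunit genes 388 CPM. A difference of this kind was also seen over all genes of at least 1 CPM, with medians of 56.5 CPM for 395 hosts and 26.5 CPM for 10353 others. These medians are a description, with no test, and the snoRNAs themselves were not analysed here.

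**Figure D4:**
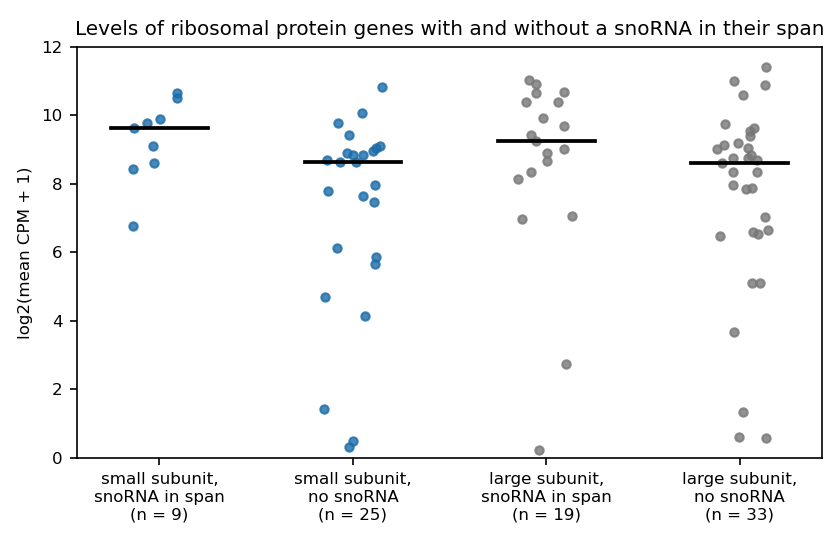
log2(mean CPM + 1) of small subunit (blue) and large subunit (grey) genes with and without a snoRNA in their RefSeq span; points are genes and bars medians. The 9 small subunit hosts lie at or above 108 CPM, while the other entries reach both the highest level (RPS6) and the lowest.

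RACK1, a protein of the head that is outside the RPS naming and is listed under its older symbol GNB2L1, had 1882 ± 12.9 CPM (n = 3), close to RPS6. It serves as a docking site for signalling proteins on the ribosome. It held 2 snoRNAs and a pyrimidine run of 18 bases, and it did not pass the test between libraries. Its SD was smaller than that of RPS6 (108).

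Factors that assemble the small subunit were far less abundant than its proteins. All 30 of the list were in the table, with a median of 46.3 CPM, or 0.79 ± 0.18 log2 units above all genes of at least 1 CPM. The GTPase-like factor TSR1 (270 ± 9.24 CPM), ZNF622 (267 ± 32.2) and the nucleolar methyltransferase FBL (164 ± 5.65) were highest. ZNF622 was on the list although its yeast counterpart is known as a factor of the large subunit. TSR2, the chaperone of RPS26, had 142 ± 1.68 CPM. NOP56 had 1, 1 and 0 counts. Of 26 tested factors 4 differed between libraries (15.4%, against 19.6% of all genes tested), ZNF622 among them. Of these 4, 1 was highest in replicate 3.

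The mitochondrial ribosome has its own small subunit. The 30 genes listed for it had a median of 50.02 CPM, or 0.87 ± 0.09 log2 units above all genes of at least 1 CPM. They were taken by name, and not all of them need encode proteins of that subunit. MRPS36, for example, is named KGD4 in RefSeq. MRPS18B (480 ± 69.0 CPM), MRPS34 (295 ± 18.1) and MRPS26 (171 ± 16.5) were highest, and MRPS24 had 5, 0 and 0 counts. Of 27 tested genes 4 differed between libraries (14.8%, against 19.6% of all genes tested), 2 of them highest in replicate 3.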

How the data were processed

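Raw counts per gene for 3 RIP-seq libraries were deposited by the authors, per the file headers. Per the submitters' processing notes, CASAVA 1.4 and build hg38 were used. They name no aligner, counter or strand setting, which are thus unknown. A further 3 per-sample columns, called normalised by edgeR in the header, were not used. Members and lists were chosen with earlier results of these data known. Some members are not reported here by name or drawn by name, but all 34 are in the counts, medians and sums; of other lists, the 3 highest and those below 1 CPM are named where described.

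Counts were scaled to 1000000 per library (CPM); log2 values used a pseudocount of 1. Genes whose counts summed to 30 or more were tested for a difference between libraries by chi-square, with expected counts in proportion to depth and a Benjamini-Hochberg adjusted p threshold of 0.05. On counts simulated with counting error only, it called 0 of 8646 unchanged genes, and 66% of 2-fold and 100% of 4-fold changes in replicate 3. Beside 200 changed genes it called 6 of 8456 unchanged ones. Counting error is what the test assumes, so the simulation does not give its error rate under the spread of real libraries. Positions, snoRNAs and start sequences came from RefSeq GRCh38.p14, the same assembly as hg38, in which all 34 members matched. Wilson intervals cover counting error only. Transcript and coding lengths were not used here. Python 3.11.15, scipy 1.17.1, R 4.3.3, edgeR 4.0.16 (TMM factors) and DESeq2 1.42.0 (size factors) were used.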

Additional observations from a re-analysis of the deposited data

How the results depend on the processing

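No paired analysis was possible because the series has 1 group. The alternatives per coding length were not run, since coding lengths were not used here. Leaving out RPS6 brought the summed share of the small subunit genes to 1.498% of counts. The distance of their median from that of all genes was 4.58 log2 units with no filter on the background and 3.15 against genes of at least 10 CPM, since the background median moves with its filter. The spread between members was 3.20 with a pseudocount of 0.1 CPM and 2.09 over members of at least 1 CPM, which leaves out 2 members, RPS9 among them. With 1 replicate left out, the number of members that differed between libraries ranged from 2 (without replicate 3) to 14 (without replicate 2). These were 6.45% and 45.2% of tested members, against 5.8% and 16.6% of all genes. The number highest in replicate 3 ranged from 4 (without replicate 1) to 14 (without replicate 2). Of 46 comparisons of a summary value with an alternative, 38 stayed within 1 SD between libraries or, for counts of genes, within 1.5 times. RPS20 was no longer called with a summed count of at least 10 (12 members called, 38.7%, against 17.1% of all genes). At the depth of replicate 3, a count of 0 leaves levels of up to 2.74 CPM possible.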

Other observations

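The genes named as ribosomal S6 kinases, which share the RPS prefix without encoding ribosomal proteins, were low beside RPS6. They were taken by name, and not all of them need act on RPS6. The 9 listed kinase genes had a median of 21.6 CPM. RPS6KA1 (90.2 ± 10.4 CPM, SD, n = 3) and RPS6KA4 (85.1 ± 11.6) were highest, RPS6KB2 had 69.1 ± 4.57 CPM and RPS6KB1 21.6 ± 2.79 CPM. Of 7 tested kinase genes 1 differed between libraries (14.3%, against 19.6% of all genes tested), RPS6KA3, which was highest in replicate 1. RPS19BP1, a nucleolar binding partner of RPS19, had 60.3 ± 13.4 CPM and did not pass the test.

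The simple epithelial keratins KRT8, KRT7 and KRT18 differed between libraries and were highest in replicate 1. Of all 8633 genes tested 19.6% differed, as did 44.3% of the 894 genes whose counts summed to 1000 or more. Replicate 1 was the highest library for 3517 of the 8633 genes tested, more than either other library. Of the stellate cell or fibroblast list, VIM had 1104 ± 52.5 CPM, and COL3A1 (42.5 CPM) and PDGFRB (31.1 CPM) had counts in each of the 3 libraries. KRT19, COL1A1 and CD14 had 0 counts in each library, so that levels of up to 1.48, 2.05 and 2.74 CPM remain possible in the 3 libraries.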
